A study of Homo sapiens with 8 samples.

Results

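The BCL2 family decides whether a cell opens its outer mitochondrial membrane and dies by apoptosis. The 10 genes described here were taken by name, BAD, BID, BBC3, PMAIP1 and BCL2L11 as BH3-only members, BAX and BAK1 as effectors, BCL2L1 and MCL1 as survival members, and BCL2L13 as a further relative, and all 10 had a row among the 12939 genes of every library. None of the 10 was past an adjusted p of 0.05 in either knockdown of CSCs. Over all genes, 14.3% passed with CDH2 shRNA and 1.21% with Cx43 shRNA. The members nearest to passing were lower BAD, BID and BBC3 with CDH2 shRNA. After a correction for GC content and length, their log2 fold changes of -0.56, -0.44 and -0.38 became -0.21, -0.38 and -0.08.

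BH3-only proteins sense damage, lost survival signals or death receptor ligands and either bind the survival proteins or activate the effectors directly. BAX and BAK1 then form pores that release cytochrome c, and the survival proteins hold both groups in check. Much of this control is on the proteins, through cleavage, phosphorylation, degradation and location, which transcript levels do not show.

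The cells were cancer stem cells (CSCs) of MDA-MB-231, a mesenchymal breast cancer line. All groups carried GFP driven by the Oct4a regulatory region, kept under G418, and an RFP vector with scramble, CDH2 or Cx43 shRNA that had been stably transfected and selected with puromycin, and the cells bright for both colours were sorted as CSCs and left overnight before RNA isolation. CDH2 (N-cadherin) is a cell adhesion protein and Cx43 a gap junction protein, and the comparisons ask how losing either one changes the transcripts of CSCs. Of the 8 libraries, 3 carried scramble, 3 CDH2 and 2 Cx43 shRNA, each with a replicate number. According to the methods, the CDH2 shRNA cells came from a single clone, so the clone and the knockdown cannot be told apart, and no source used here says that the libraries of a group came from separate cultures, so p-values measure the spread between these libraries only. Loss of the targeted transcripts could not be looked at, since those of CDH2 and Cx43 were not analysed here.

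Values are log2(CPM + 1), the log of counts scaled to library size, and a difference of 1 is a doubling for genes well above 0. The deposited values hold no counts, so the depth is unknown and the number of libraries limits the precision. All 9 markers of MDA-MB-231 in the list used had values, the highest being VIM between 9.62 and 9.81. The lowest were S100A4 (2.89 to 4.59), ANXA1 (3.71 to 5.05) and CAV2 (4.12 to 5.08). Of 11 luminal or epithelial markers, 5 had values between 2.21 and 8.78. Those were KRT18 (8.14 to 8.78), KRT8 (7.99 to 8.61), XBP1 (7.09 to 7.43), ERBB2 (5.16 to 5.52) and EPCAM (2.21 to 2.75), and ESR1, PGR, CDH1, KRT19, GATA3 and FOXA1 were not among the genes analysed here. POU5F1, the gene behind the reporter of the sort, lay between 3.57 and 3.85. Of 7 markers of other cell types, PECAM1 (1.67 to 2.5) and COL1A1 (2.5 to 4.33) had values. In bulk RNA, fewer cells with a transcript and less of it per cell cannot be told apart.

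Per kb of exons, the survival members and the BH3-only PMAIP1 had the highest means. In the scramble libraries, the CPM per kb of exons was 51.0 ± 4.02 (SD, n = 3) for BCL2L1, 44.5 ± 2.94 for MCL1, 41.8 ± 2.25 for PMAIP1 and 37.3 ± 5.07 for BAD. Each of these 4 overlapped its neighbour in that order. BAX followed at 26.0 ± 3.61, BCL2L13 at 14.5 ± 0.241, BAK1 at 10.1 ± 0.779 and BID at 7.48 ± 0.631. The lowest levels per kb were those of BBC3 (2.76 ± 0.292) and BCL2L11 (1.58 ± 0.0628), and from BAD downwards no neighbours overlapped. The effector BAX was therefore above BAK1, and the 5 BH3-only members ran from PMAIP1 in the third place to BCL2L11 in the last. With CDH2 shRNA the first place went to MCL1 (52.7 ± 2.96), whose libraries overlapped those of BCL2L1 (50.1 ± 3.93), and PMAIP1 at 47.6 ± 2.66 overlapped BCL2L1 too. With Cx43 shRNA MCL1 stood at 56.9 and BCL2L1 at 52.4 CPM per kb as means of 2 libraries that did not overlap. The order depends on the length that is used: with the longest transcript 3 of the 10 genes held the same place in the scramble libraries, and with the coding length 4 did. MCL1 was then first in the scramble libraries, at 70.2 and 264 CPM per kb. With the longest transcript PMAIP1 (48.1) lay below BAD (55.1) and BAX (49.5), and with the coding length it lay above both.

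**Figure D1:**
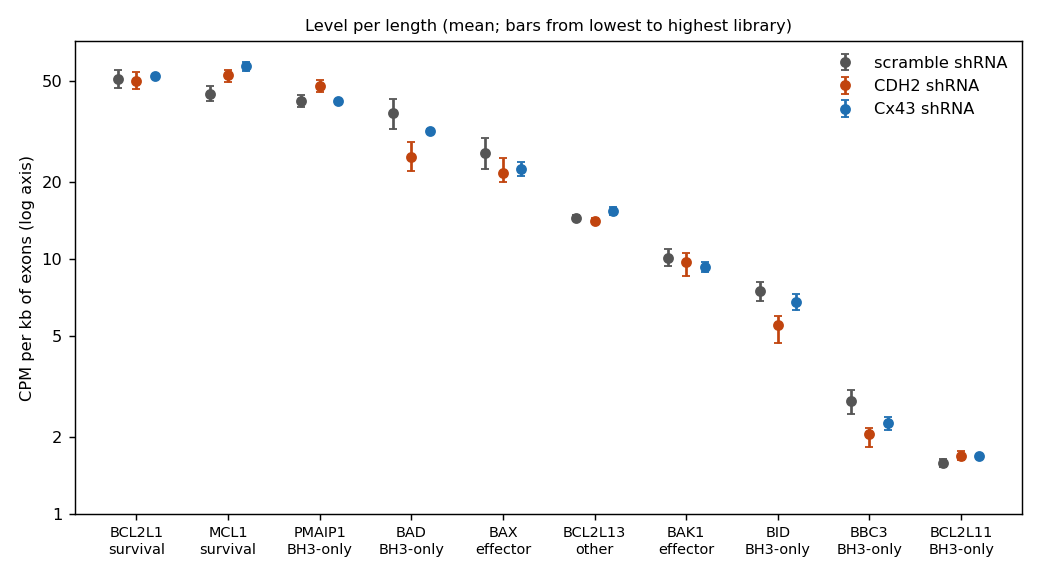
Level of each member in CPM per kb of exons (log axis), as the mean of 3 scramble, 3 CDH2 or 2 Cx43 shRNA libraries with bars from the lowest to the highest library. BCL2L1, MCL1, PMAIP1 and BAD lie together at the top in scramble, and BBC3 and BCL2L11 lie lowest in all groups.

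The promoters of the BH3-only members with the largest differences between groups are shown for their contrast in base composition and motifs. These are the 250 bases before the start listed in RefSeq on GRCh38.p14, 5′ to 3′, at the start farthest upstream where RefSeq lists several (5 for BID, 2 for BAD). The contrast is therefore that of these windows and not of the other starts. GENCODE v44 begins BID at 17774770 and BBC3 at 47232766, positions that lie inside their windows. Capitals mark the GC box GGGCGG, which SP1 family factors bind, and TGACG, a short site of the ATF and CREB factors, on either strand.
BAD, chr11:64284705-64284954, minus strand: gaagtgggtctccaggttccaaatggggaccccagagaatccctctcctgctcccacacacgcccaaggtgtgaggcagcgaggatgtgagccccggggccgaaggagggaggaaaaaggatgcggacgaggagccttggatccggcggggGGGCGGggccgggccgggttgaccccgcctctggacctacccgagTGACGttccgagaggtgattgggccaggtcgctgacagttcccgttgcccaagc
BID, chr22:17774666-17774915, minus strand: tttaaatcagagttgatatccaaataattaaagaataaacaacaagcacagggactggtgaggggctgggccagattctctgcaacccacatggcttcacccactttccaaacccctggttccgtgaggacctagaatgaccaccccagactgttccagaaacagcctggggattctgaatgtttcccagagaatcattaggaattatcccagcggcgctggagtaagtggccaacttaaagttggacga
BBC3, chr19:47232668-47232917, minus strand: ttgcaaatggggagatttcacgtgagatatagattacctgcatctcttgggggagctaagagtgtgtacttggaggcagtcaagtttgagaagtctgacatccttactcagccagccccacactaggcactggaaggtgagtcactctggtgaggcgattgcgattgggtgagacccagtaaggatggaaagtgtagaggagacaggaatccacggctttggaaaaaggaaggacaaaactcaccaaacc
PMAIP1, chr18:59899746-59899995, plus strand: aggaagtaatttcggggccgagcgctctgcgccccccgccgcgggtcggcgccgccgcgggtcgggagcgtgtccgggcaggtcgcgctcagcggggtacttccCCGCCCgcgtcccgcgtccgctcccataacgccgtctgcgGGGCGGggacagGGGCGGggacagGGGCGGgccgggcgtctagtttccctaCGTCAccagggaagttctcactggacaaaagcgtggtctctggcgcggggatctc
BAD held 1 GC box and 1 short site, PMAIP1 held 4 GC boxes and 1 short site, and the letters of neither motif were in these windows of BID and BBC3. GC content was 66.4% and 72.8% for BAD and PMAIP1 and 47.6% and 49.2% for BID and BBC3, beside a median of 58.0% over all promoters. Over 35116 promoters of this length, 42.6% held a GC box and 21.2% the short site, and 7 and 5 of the 9 members with an entry held them at any of their starts. The full site TGACGTCA, in 1.6% of promoters, and TGATGNAAN, in 3.1%, a form of the element bound by ATF4 with C/EBP factors, matched in none of the 9. A match is a run of letters and not a measured binding site. MCL1 had no entry.

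Each comparison was tested for all genes in a single limma model of the 8 libraries, with the replicate number as a block. The deposited values already had the run effect removed, so deviations from group means sum to 0 within each replicate number. In replicate 3 the CDH2 and scramble libraries therefore mirror each other and are not independent. A fit without the block takes no account of this removal, so its p-values are too small. Residuals vary in 2 directions where 3 degrees of freedom are counted, so intervals and p-values with the block may be too small as well. In the members, scramble replicate 1 lay close to midway between scramble replicates 2 and 3, as for BAD (6.01 between 6.20 and 5.81). The 3 scramble libraries may therefore not be independent values, and their SDs may be too small. With CDH2 shRNA versus scramble, 0 of the 10 members had an adjusted p under 0.05, where 14.3% of all genes did, 7.29% higher and 6.98% lower (Benjamini-Hochberg over 12939 genes). At an unadjusted p under 0.05 there were 4 members, 1 higher and 3 lower, beside 37.5% of all genes (19.5% higher and 18% lower). The 3 CDH2 libraries lay outside the range of the scramble libraries in 5 members, 2 higher and 3 lower, beside 51.9% of all genes (27.1% higher and 24.8% lower). The median log2 fold change of the members was -0.06 and that of all genes 0.01. These shares are near or under the background.

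Among the BH3-only members with CDH2 shRNA, BAD, BID and BBC3 had log2 fold changes of -0.56, -0.44 and -0.38, PMAIP1 had 0.19 and BCL2L11 had 0.09. The differences were therefore not all in 1 direction, and 3 of the 5 were negative. BAD, a sensitizer that binds BCL2 and BCL-XL and is held back by phosphorylation from survival kinases, was at 6.01, 6.20 and 5.81 in scramble replicates 1, 2 and 3. It was at 5.42, 5.28 and 5.64 with CDH2 shRNA and at 5.82 and 5.76 with Cx43 shRNA. Every CDH2 library lay below every other library, although the highest of them, replicate 3, lay only 0.17 below scramble replicate 3, against 0.92 in replicate 2. The log2 fold change of CDH2 shRNA was -0.56 (95% interval -0.92 to -0.20), with an adjusted p of 0.0566 in limma. Without the replicate block it was 0.0104, in a fit whose p-values are too small and that called 43.3% of all genes. Without CDH2 or scramble replicate 3 the adjusted p was 0.000955 at a fold change of -0.75, in a fit that called 41% of all genes. Quantile normalization gave 0.0487 (15.2% of all genes called), and over all alternatives the adjusted p ran from 0.000955 to 0.222. BAD shares 404 bases of exon with GPR137 on the opposite strand, a gene that had a log2 fold change of -0.52 in limma (adjusted p = 0.0695), and no source states that counting used strand, so reads of both genes may be mixed.

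BID links death receptors to mitochondria once caspase-8 has cleaved it. Its values were 5.10, 5.20 and 4.96 in scramble, 4.74, 4.44 and 4.77 with CDH2 shRNA, and 4.85 and 5.05 with Cx43 shRNA. The CDH2 libraries lay below all others, with replicate 2 the lowest. BID had a log2 fold change of -0.44 (95% interval -0.77 to -0.11) with an adjusted p of 0.0762 in limma. This was 0.0177 without the replicate block and 0.00639 without CDH2 or scramble replicate 3, within a range of 0.00639 to 0.294 over all alternatives. The fold change of BID was -0.56 in the latter fit, and it shrank to -0.27 without CDH2 replicate 2.

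BBC3 encodes PUMA, which binds all survival members. It stood at 3.29, 3.15 and 3.42 in scramble, at 2.98, 2.97 and 2.77 with CDH2 shRNA and at 2.96 and 3.11 with Cx43 shRNA. All 5 knockdown libraries were below all scramble libraries, and both knockdowns overlapped each other. With CDH2 shRNA the log2 fold change was -0.38 (95% interval -0.67 to -0.09), with a limma adjusted p of 0.076. Without the block it was 0.0155 and without scramble replicate 2 (12.1% of all genes called) it was 0.0289 at a fold change of -0.49, in a range of 0.0155 to 0.772. Without CDH2 or scramble replicate 3 the fold change of BBC3 was -0.24.

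PMAIP1, which encodes NOXA, a short-lived partner of MCL1 that drives its degradation, went the other way in value. It was at 6.52, 6.45 and 6.60 in scramble, 6.71, 6.80 and 6.64 with CDH2 shRNA, and 6.53 and 6.52 with Cx43 shRNA. The CDH2 libraries were the 3 highest, and replicate 3 was above scramble replicate 3 by only 0.03. The log2 fold change with CDH2 shRNA was 0.19 (95% interval -0.03 to 0.40) with an adjusted p of 0.175 in limma, and 0.0414 without the block, in a range of 0.0414 to 0.583. The fold change of PMAIP1 was 0.12 without CDH2 replicate 2.

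BCL2L11, or BIM, a direct activator of BAX that FOXO factors induce, varied least among the BH3-only members. Its values were 3.54, 3.59 and 3.49 in scramble, 3.63, 3.57 and 3.68 with CDH2 shRNA, and 3.62 and 3.63 with Cx43 shRNA. The log2 fold change was 0.09 in each knockdown, with limma adjusted p-values of 0.439 and 0.619. With 727 bases of exon shared with MIR4435-2HG on the opposite strand, BCL2L11 may also hold reads of that gene.

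**Figure D2:**
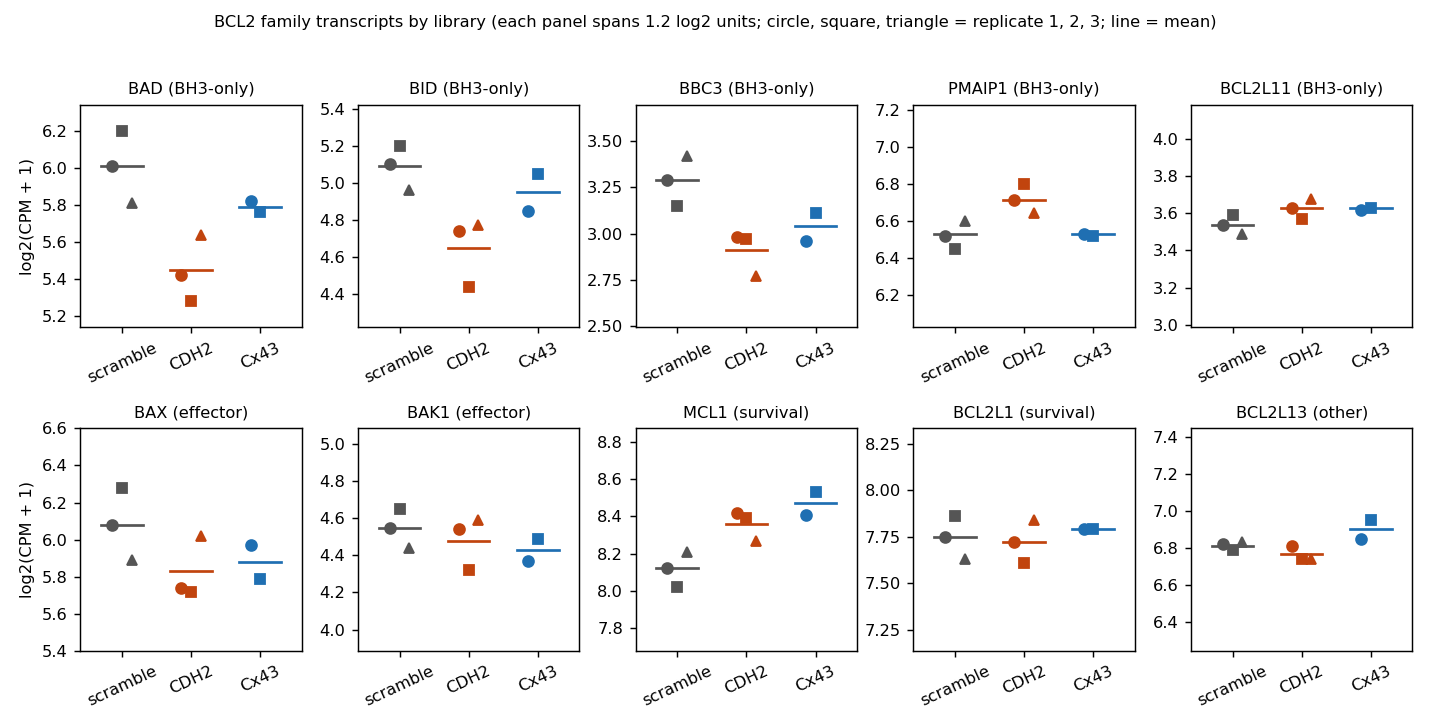
log2(CPM + 1) of the 10 members in each library, with circles, squares and triangles for replicates 1, 2 and 3 and a line at the group mean, and each panel spans the same height in log2 units. The CDH2 shRNA libraries of BAD and BID lie below all others, and both knockdowns lie above scramble for MCL1.

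The effectors did not separate the groups. BAX, which moves from the cytosol to mitochondria to form pores, was at 6.08, 6.28 and 5.89 in scramble, 5.74, 5.72 and 6.02 with CDH2 shRNA, and 5.97 and 5.79 with Cx43 shRNA. Replicates 1 and 2 with CDH2 shRNA were below all scramble libraries and replicate 3 was above scramble replicate 3. The log2 fold change was -0.25 (95% interval -0.62 to 0.11) with an adjusted p of 0.26 in limma, and -0.45 with 0.0131 without CDH2 or scramble replicate 3, in a range of 0.0131 to 0.869. Without scramble replicate 2 the fold change of BAX was -0.09. With a correction for GC content and length the fold change of BAX was 0.02, so its direction turned. BAK1, which sits in the outer mitochondrial membrane, was at 4.55, 4.65 and 4.44 in scramble, 4.54, 4.32 and 4.59 with CDH2 shRNA and 4.37 and 4.49 with Cx43 shRNA. Its groups overlapped in all comparisons, and its log2 fold changes were -0.06 (95% interval -0.35 to 0.22) and -0.12 (-0.45 to 0.21), with limma adjusted p-values of 0.71 and 0.641.

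Of the survival members, MCL1 was higher in value in both knockdowns and BCL2L1 was not. MCL1 is a short-lived protein whose level follows its transcript and its degradation closely. It was at 8.12, 8.02 and 8.21 in scramble, 8.42, 8.39 and 8.27 with CDH2 shRNA, and 8.41 and 8.53 with Cx43 shRNA. All knockdown libraries lay above all scramble libraries, with CDH2 replicate 3 nearest to them. With CDH2 shRNA the log2 fold change was 0.24 (95% interval 0.00 to 0.48) with an adjusted p of 0.129 in limma. Without the block this was 0.0297, and without CDH2 or scramble replicate 3 it was 0.036, in a range of 0.0297 to 0.477. MCL1 shares 43 bases of exon with ADAMTSL4 on the opposite strand, which had a log2 fold change of -0.51 in limma (adjusted p = 0.0536), and 328 with ADAMTSL4-AS1 on the same strand. The part of shared reads was not tested.

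BCL2L1 encodes BCL-XL and, by splicing, the pro-apoptotic BCL-XS, and the values per gene do not separate the forms. It was at 7.75, 7.86 and 7.63 in scramble, 7.72, 7.61 and 7.84 with CDH2 shRNA, and 7.79 in both Cx43 libraries. The groups overlapped, and the log2 fold changes were -0.02 (95% interval -0.28 to 0.23) and 0.04 (-0.26 to 0.34), with limma adjusted p-values of 0.878 and 0.869. BCL2L1 shares 1735 bases of exon with the lncRNA ABALON on the opposite strand, and reads of these genes may be mixed as well. BCL2L13, a mitochondrial relative that acts in mitophagy, was at 6.82, 6.79 and 6.83 in scramble, 6.81, 6.74 and 6.74 with CDH2 shRNA, and 6.85 and 6.95 with Cx43 shRNA. It had log2 fold changes of -0.05 and 0.08 (limma adjusted p = 0.687 and 0.631).

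**Figure D3:**
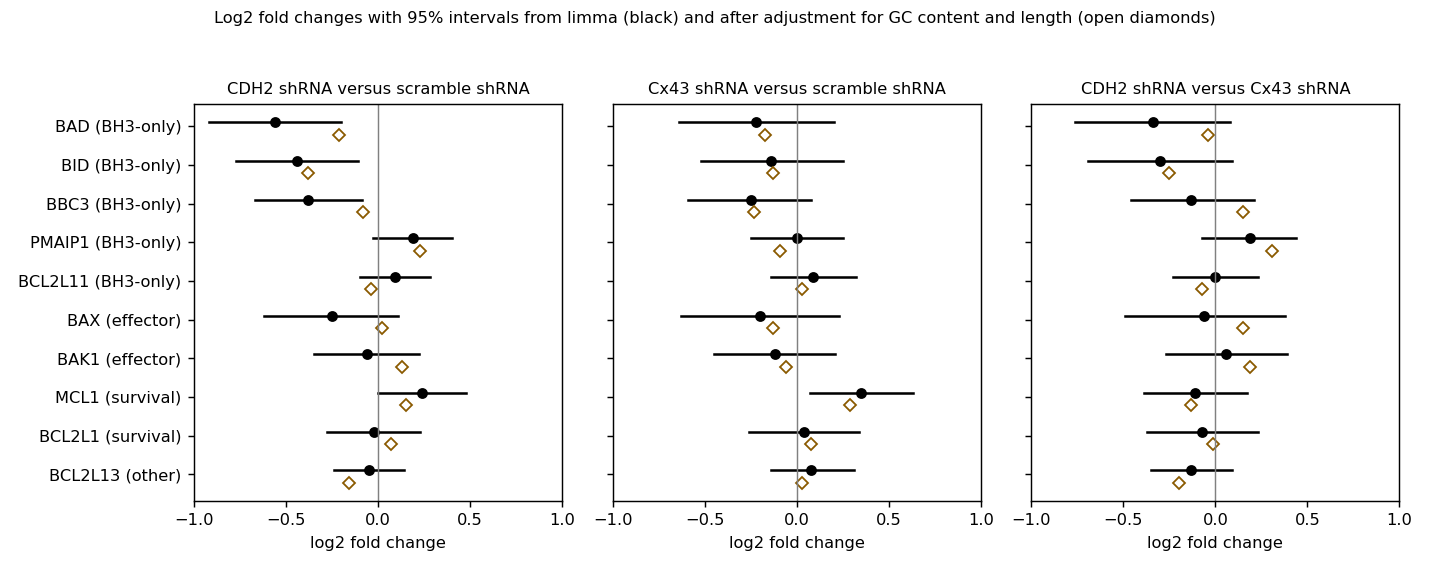
log2 fold changes of the 10 members in the 3 comparisons, with black points and 95% intervals from limma and open diamonds after a correction for GC content and length. The intervals of BAD, BID and BBC3 in CDH2 shRNA versus scramble lie below 0, and the diamonds of BAD (-0.21) and BBC3 (-0.08) lie nearer to 0.

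GC content moved with the CDH2 differences of several members. A curve of transcript GC content and length was fitted to the deviations of genes from their means over all 8 libraries. It fitted 33.6%, 39.4% and 2.52% of their variance in CDH2 replicates 1, 2 and 3. The share was 1.1% to 32.7% in the scramble libraries and 6.83% and 5.47% in the Cx43 libraries. These deviations hold the differences between groups, so the correction also removes group differences that follow GC content or length. The transcripts of BBC3 (69.7% GC) and BAD (66.3%) were among the members richest in GC and those of PMAIP1 (36.7%) and MCL1 (45.1%) the poorest, beside a median of 48.1% over all matched genes. After the correction, which was added after the values were seen, the log2 fold change with CDH2 shRNA was -0.21 for BAD, -0.08 for BBC3, -0.38 for BID, 0.23 for PMAIP1 and 0.15 for MCL1, with limma adjusted p-values of 0.09, 0.772, 0.0819, 0.158 and 0.192. The differences of BAD, BBC3 and MCL1 thus moved by over 1.5 times, while that of BID stayed close to its value. The part of GC content in these results was not tested further.

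With Cx43 shRNA versus scramble, 0 of the 10 members had an adjusted p under 0.05, beside 1.21% of all genes. At an unadjusted p under 0.05 there was 1 member, MCL1, beside 21.6% of all genes, and 4 members did not overlap, 3 higher and 1 lower, beside 52.8% (31.4% higher and 21.4% lower). MCL1 had the largest value, a log2 fold change of 0.35 (95% interval 0.07 to 0.63) with an adjusted p of 0.164 in limma. This was 0.0191 without the block (24.3% of all genes called), 0.0203 in a fit of only the groups compared (21.7%) and 0.0356 without CDH2 or scramble replicate 3 (16.5%), within a range of 0.0191 to 0.82. After the correction for GC content and length it was 0.29 (adjusted p = 0.111). The BH3-only members had log2 fold changes of -0.25 for BBC3, -0.22 for BAD, -0.14 for BID, 0.09 for BCL2L11 and 0.00 for PMAIP1, with limma adjusted p-values between 0.342 and 0.998. The 95% interval of BAD ran from -0.64 to 0.20, so the size seen with CDH2 shRNA lies within it. Without scramble replicate 2 the fold change of BAD was -0.03, and without Cx43 replicate 1 that of BBC3 was -0.14 and that of BID 0.01.

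**Figure D4:**
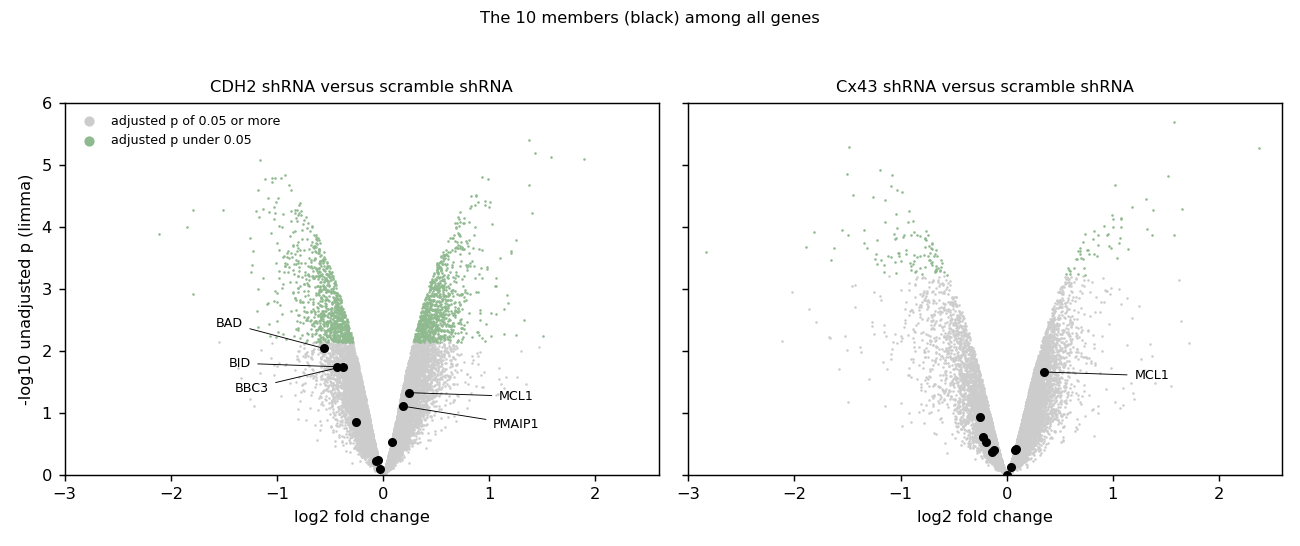
log2 fold change against -log10 of the unadjusted limma p of all 12939 genes for CDH2 (left) and Cx43 (right) shRNA versus scramble, with genes under an adjusted p of 0.05 in green and the 10 members in black. BAD (adjusted p = 0.0566), BID and BBC3 lie to the left below the green genes, and MCL1 lies to the right.

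The difference between the knockdowns was tested directly. With CDH2 shRNA versus Cx43 shRNA, 0 of 10 members passed, as did 0% of all genes in limma, and at an unadjusted p under 0.05 there were 0 members beside 20% of all genes. In 4 members the libraries did not overlap, PMAIP1 higher and BAD, BID and BCL2L13 lower with CDH2 shRNA, beside 50.8% of all genes (21.8% higher and 29.1% lower). The log2 differences were -0.34 for BAD (95% interval -0.76 to 0.08), -0.30 for BID (-0.69 to 0.09), -0.13 for BBC3 (-0.46 to 0.21) and 0.19 for PMAIP1 (-0.07 to 0.44). The limma adjusted p-values of these 4 genes ran from 0.329 to 0.628. For BAD it was 0.0311 without CDH2 or scramble replicate 3 (16.5% of all genes called), in a range of 0.0311 to 0.809. Leaving out 1 library moved the difference of BAD between -0.43 and -0.17 and that of BID between -0.45 and -0.09, with the value nearest to 0 of each without CDH2 replicate 2. The difference of BBC3 was -0.02 without Cx43 replicate 2. MCL1 differed by -0.11 (95% interval -0.39 to 0.17) and BAX by -0.06 (-0.49 to 0.38).

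The classes were also set against each other within each library as summed CPM per kb. The survival members summed to 1.05, 1.03 and 1.08 times the BH3-only members in scramble replicates 1, 2 and 3. The ratio was 1.28, 1.24 and 1.24 with CDH2 shRNA, and 1.27 and 1.33 with Cx43 shRNA. All knockdown libraries were above all scramble libraries, and no test was made of this sum over chosen genes. Such separation is common among single genes, as 27.1% lay above scramble without overlap with CDH2 shRNA and 31.4% with Cx43 shRNA. The share of genes above scramble in both knockdowns was not counted. With the longest transcript as the length, the ranges were 1.06 to 1.15 in scramble, 1.34 to 1.41 with CDH2 shRNA and 1.36 to 1.42 with Cx43 shRNA. After the correction for GC content and length they were 1.06 to 1.13, 1.10 to 1.23 and 1.33 to 1.39, and CDH2 shRNA then overlapped scramble. The sums of the BH3-only class were carried by PMAIP1 and BAD, and those of the survival class by both members. The ratio of survival members to effectors was 2.66, 2.38 and 2.97 in scramble, 3.45, 3.51 and 2.94 with CDH2 shRNA and 3.26 and 3.63 with Cx43 shRNA, so that the CDH2 and scramble libraries overlapped through replicate 3.

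**Figure D5:**
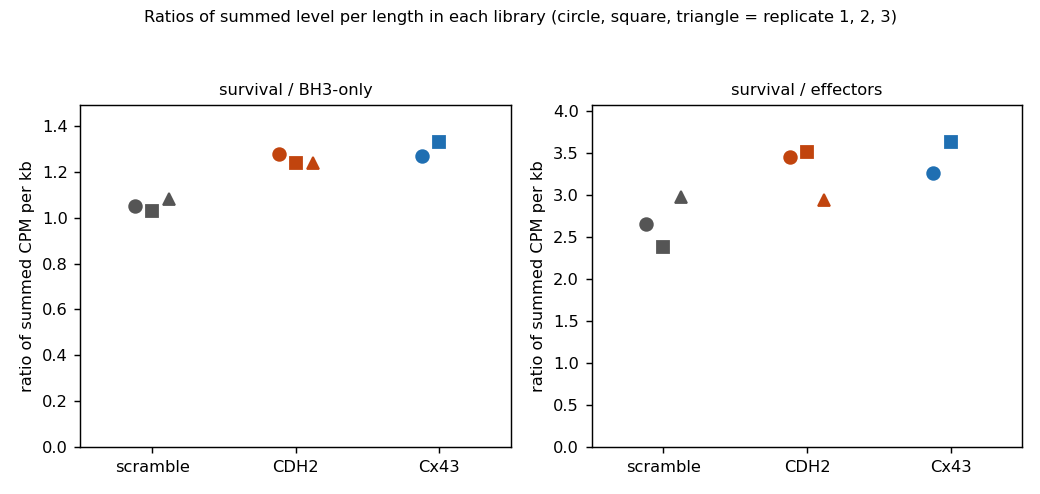
Ratio of summed CPM per kb in each library, survival to BH3-only members (left) and survival members to effectors (right), with circles, squares and triangles for replicates 1, 2 and 3. On the left the scramble libraries lie between 1.03 and 1.08 and all knockdown libraries lie between 1.24 and 1.33. No test was made of these ratios.

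Of 19 other genes of the wider family, 13 had values, and 1 of them was past an adjusted p of 0.05 with CDH2 shRNA and 0 in limma with Cx43 shRNA, where 3 had an unadjusted p under 0.05. Over all genes the shares were 14.3%, 1.21% and 21.6%, so these counts are near or under the background. The gene that passed was BCL2, the founding survival member, at 2.88, 2.90 and 2.88 in scramble, 3.23, 3.41 and 3.33 with CDH2 shRNA, and 3.31 and 3.10 with Cx43 shRNA. BCL2 rose by 0.44 on the log2 scale with CDH2 shRNA (95% interval 0.20 to 0.68, limma adjusted p = 0.0404), and its value with Cx43 shRNA was 0.32 (adjusted p = 0.185). After the correction for GC content and length, BCL2 was at 0.24 with an adjusted p of 0.153. BIK, a BH3-only protein of the endoplasmic reticulum, was lower in value in both knockdowns, by log2 fold changes of -0.57 (limma adjusted p = 0.0508) and -0.67 (0.108). Its level was low, between 1.65 and 2.58 over the libraries. The correction for GC content and length gave BIK -0.29 (limma adjusted p = 0.1) and -0.61 (0.0531). The values of BCL2L2, which encodes the survival protein BCL-W, and of BOK, an effector relative, had log2 fold changes of 0.16 and -0.19 with CDH2 shRNA (limma adjusted p = 0.205 and 0.212). BMF and BNIP1, with BH3 or BH3-like regions, had log2 fold changes of -0.47 and -0.17 with CDH2 shRNA (limma adjusted p = 0.335 and 0.307). The mitophagy receptors BNIP3 and BNIP3L had log2 fold changes of -0.25 and -0.44 with CDH2 shRNA and 0.23 and 0.08 with Cx43 shRNA. BECN1, the autophagy protein that BCL2 binds, had -0.02 and 0.13 with CDH2 and Cx43 shRNA in turn, and MOAP1, a partner of BAX, had -0.07 and 0.16. BCL2L12 and BNIP2 had -0.14 and 0.11 with CDH2 shRNA and 0.05 and 0.26 with Cx43 shRNA. BCL2L2-PABPN1, a readthrough of BCL2L2 whose reads may be shared with it, had 0.04 and 0.65 (limma adjusted p = 0.839 and 0.0921). Of these 9 genes, BCL2L2-PABPN1 with Cx43 shRNA had the lowest adjusted p of either knockdown versus scramble. The 13 genes had a median log2 fold change of -0.14 with CDH2 shRNA and 0.16 with Cx43 shRNA, beside 0.01 and 0.04 for all genes.

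Downstream of the pores, 1 of 16 permeabilization partners and released factors rose and 2 fell with CDH2 shRNA, and 0 passed in limma with Cx43 shRNA, where 6 had an unadjusted p under 0.05. Over all genes, 14.3% passed with CDH2 shRNA, and with Cx43 shRNA 1.21% passed and 21.6% had an unadjusted p under 0.05. APAF1, the scaffold of the apoptosome, rose by 0.34 on the log2 scale (limma adjusted p = 0.0486). AIFM1, a flavoprotein released from mitochondria, had a log2 fold change of -0.46 (adjusted p = 0.0352), and ENDOG, a mitochondrial nuclease, of -0.40 (adjusted p = 0.0416). The corrected values for GC content and length were 0.10, -0.54 and -0.04, of which AIFM1 alone passed (adjusted p = 0.026). Among 34 modifiers of the family's proteins, MAPK3, which encodes the kinase ERK1 that phosphorylates BIM and MCL1, fell by 0.51 with CDH2 shRNA on the log2 scale (limma adjusted p = 0.0223), and CASP2, a caspase that cleaves BID, rose by 0.54 (adjusted p = 0.0499). With Cx43 shRNA, 0 of these 34 passed in limma and 3 had an unadjusted p under 0.05. Over all genes, 14.3% passed with CDH2 shRNA and 21.6% had an unadjusted p under 0.05 with Cx43 shRNA, so the 34 genes had smaller shares.

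Of 13 transcription factors known to act on BH3-only genes, 3 fell with CDH2 shRNA and 1 with Cx43 shRNA, where 6.98% and 0.788% of all genes were called lower. DDIT3 (CHOP), a stress factor that raises BIM and PUMA, was at 4.65, 4.67 and 4.64 in scramble, 4.06, 4.04 and 4.08 with CDH2 shRNA and 4.04 and 4.03 with Cx43 shRNA. The groups of knockdown libraries lay far below scramble, with log2 fold changes of -0.59 and -0.62 (limma adjusted p = 0.0198 and 0.0384). ATF4, which induces DDIT3 and PMAIP1, fell by 0.48 with CDH2 shRNA on the log2 scale (limma adjusted p = 0.0215), and CEBPB, a C/EBP factor, by 0.42 (adjusted p = 0.0342). PMAIP1 was not lower in these libraries. After the correction for GC content and length DDIT3 was at -0.40 (adjusted p = 0.0363), ATF4 at -0.30 (0.0552) and CEBPB at -0.13 (0.492).

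The 12 genes of the integrated stress response overlap that list in DDIT3 and ATF4. With CDH2 shRNA 5 of the 12 fell and 0 rose, and with Cx43 shRNA 2 fell and 0 rose, beside the 6.98% and 0.788% of all genes called lower. Both lists were chosen with earlier results of these data known, so counts above those shares are not independent support. Beside DDIT3 and ATF4, ASNS, the asparagine synthetase, had log2 fold changes of -0.33 (limma adjusted p = 0.0448) and -0.77 (0.0354), and CHAC1, which degrades glutathione, had -0.94 (0.0449) and -0.76 (0.175). SESN2, a stress sensor that ATF4 induces, had -0.52 (0.0495) and -0.71 (0.0856). With the correction for GC content and length the CDH2 calls of CHAC1 (-0.66, adjusted p = 0.174) and SESN2 (-0.42, 0.0893) were lost, and that of ASNS (-0.33, 0.0353) was not. The median log2 fold change of the 12 was -0.32 and -0.35, beside 0.01 and 0.04 for all genes.

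None of the calls with CDH2 shRNA outside the 10 members, BCL2 included, held without replicate 1 or 2 of either knockdown, since limma then called 0 of the 12939 genes. The calls of DDIT3 and ASNS with Cx43 shRNA were likewise lost without CDH2 replicate 2 or either Cx43 library, where limma called 0 genes.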

How the data were processed

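RNA-Seq values of 8 libraries were used. The authors aligned reads to hg38 in Partek Flow (STAR 2.6.1 per the submitters' processing notes; the annotation is not given in the sources used here), removed 1 low-quality sample, normalized, removed the run effect and removed low genes. The deposited values are log2(CPM + 1), and none of this was repeated. The run correction centred the groups' deviations, which sum to 0 within 1e-04 in each replicate number. This leaves 3 directions for the residuals, which vary in only 2 of them. Scramble replicate 1 lay close to midway between scramble replicates 2 and 3 in the members. The cause was not tested. File headers share a naming scheme within a replicate number, the basis of the block.

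Of each file, 12939 genes were kept, and 1 line without a name was left out. Names written as dates (18) were kept. limma 3.58.1 (R 4.3.3) fitted group and replicate block on all libraries. Residual degrees of freedom are 3 (5 without the block), with a prior of 2.84. Tests are two-sided and adjusted by Benjamini-Hochberg over all genes. Code was tested on simulated data with independent noise in each library, which cannot show how well the p-values hold in these data. GENCODE v44 (hg38) gave lengths, GC content and overlaps, by symbol, for 11887 genes (91.9%), and splines of length and GC content were used for the correction. CPM per kb is (2 to the value, minus 1) per kb of exons. Settings tried are in the closing section. The members and lists were chosen with earlier results of these data known, and the genes named are the members, the wider family and, from each other list, up to 4 genes past an adjusted p of 0.05 in order of adjusted p. SESN2 was named under the stress response after its values were seen. Results of 1 further list are not reported here. Figures were drawn with matplotlib 3.10.9.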

Additional observations from a re-analysis of the deposited data

Results flagged for a closer look

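BNIP3, a mitophagy receptor with a BH3-like region, was looked at again because its 2 knockdowns lay on opposite sides of scramble. All 3 CDH2 shRNA libraries (6.90, 6.74 and 6.55) were below the scramble libraries of the same replicate number (7.0, 6.80 and 7.16), and both Cx43 shRNA libraries (7.03 and 7.39) were above theirs. The run correction ties the libraries of a replicate number to each other, so these are not independent observations. The log2 difference of CDH2 and Cx43 shRNA was -0.48 (95% interval -0.95 to -0.01), with an adjusted p of 0.245 in limma, so the difference did not pass.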

How the results depend on the processing

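Of the 12939 genes, 1846 passed with CDH2 shRNA, 156 with Cx43 shRNA and 0 between the knockdowns, and these counts depend on the block. Without the replicate block, 5607, 3140 and 2784 passed, with 5 members (BAD, BID, BBC3, PMAIP1 and MCL1) for CDH2 shRNA, 1 (MCL1) for Cx43 shRNA and 0 for the direct comparison. That fit takes no account of the run correction, so its p-values are too small and its calls too many. A fit of only the groups compared called 0, 2807 and 559 genes, with 1 member for Cx43 shRNA. Leaving out each library in turn gave 0 to 5309, 0 to 2133 and 0 to 2131 genes and 0 to 4, 0 to 1 and 0 to 1 members. The highest counts came without replicate 3 of CDH2 or scramble, 2 fits that are alike because no Cx43 library has that number. Quantile normalization called 1 member, BAD, with CDH2 shRNA. An adjusted p under 0.1 gave 3920 and 658 genes and 3 members with CDH2 shRNA, the study's fold change as well gave 267 genes with CDH2 shRNA, the 75% of genes with the highest means gave 4 with Cx43 shRNA, and the correction for GC content and length gave 432. Centring on the median, a pseudocount of 0.1 and a mean-variance trend left each of these counts within 1.5 times.

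Directions turned for the following log2 fold changes. With CDH2 shRNA the correction for GC content and length gave -0.04 for BCL2L11, 0.02 for BAX, 0.13 for BAK1 and 0.07 for BCL2L1. With Cx43 shRNA the groups compared alone gave 0.04 for PMAIP1 and -0.02 for BCL2L1, and quantile normalization gave -0.04 for BCL2L1. Between the knockdowns the groups compared alone gave -0.03 for BCL2L11, and the correction gave -0.07 for BCL2L11, 0.15 for BBC3 and 0.15 for BAX. Leaving out 1 library gave -0.17 to 0.07 for BAK1 and -0.14 to 0.07 for BCL2L1 with CDH2 shRNA. With Cx43 shRNA it gave -0.28 to 0.01 for BID, -0.08 to 0.04 for PMAIP1, -0.34 to 0.00 for BAX and -0.02 to 0.15 for BCL2L1. Between the knockdowns it gave -0.03 to 0.06 for BCL2L11, -0.19 to 0.08 for BAX, -0.03 to 0.22 for BAK1 and -0.12 to 0.04 for BCL2L1. The order of members by level per length, 10 places in all, kept 3 places with the longest transcript and 4 with the coding length. The causes were not tested. With 2 or 3 libraries a group and unknown depth, differences of the size seen here are near the limit: the median standard error over all genes was 0.106, 0.125 and 0.125.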
